A study of Mus musculus with 18 samples.

Results

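Forkhead transcription factors other than the Foxa genes were compared between neural tube cells marked by a Ptf1a enhancer and whole embryonic pancreas. Members were the genes of the deposited expression table whose symbol is Fox, a subclass letter from b to s and a number, which gave 41 of the 23228 genes in the table, in 18 subclasses. Expression was measured by RNA sequencing in 2 tissues of mouse embryos of the ICR strain, and the table gave 1 value per gene and tissue, in FPKM, a number of sequenced fragments scaled to transcript length and sequencing depth. The neural tube sample came from E12.5 embryos, whose neural tubes were dissociated with trypsin and sorted by flow cytometry for cells with GFP. These embryos carried the 2.3Ptf1a::GFP transgene, which places GFP under the basal beta-globin promoter and the autoregulatory enhancer of Ptf1a, 2.3 kb long, and the labels otherwise give the genotype as WT. The pancreas sample was whole, unsorted E15.5 pancreas, with the genotype WT and no transgene named. For each tissue the labels name 2 libraries, so each value was read as the authors' pooled value, with no replicate spread, no standard deviation and no test. Every difference below describes these 2 samples only, in which tissue, stage, sorting and RNA extraction changed together and cannot be told apart.

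Markers followed the tissue labels. Of 12 neural tube and inhibitory interneuron markers 11 were at least 4 times higher in the neural tube sample, and Ptf1a, the exception, was at 22.5 FPKM there and 37.1 in pancreas. Of 12 pancreatic epithelium markers the same number was higher in pancreas, again all but Ptf1a. From the lowest steps of the values, 1 fragment was worth about 0.0423 FPKM (neural tube) or 0.0244 FPKM (pancreas) for a transcript of 1 kb, a depth about 1.73 times greater in pancreas. A level of 3 fragments, taken as the floor, was 0.127 and 0.0733 FPKM at that length, and it covers counting error only. In the unsorted tissue, fewer cells of a type and less RNA per cell cannot be told apart.

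Forkhead proteins bind DNA through a winged-helix domain, the forkhead box, in which the third helix enters the major groove and reads a core motif. The subclasses share this domain and differ outside it, and their uses are broad: some pattern tissues, as Foxc and Foxf genes do in mesoderm, while others serve in most cells, as Foxo genes do downstream of insulin signalling and Foxk genes do as repressors. The Foxa genes open chromatin in endoderm, and Foxa2 is one of the factors studied by chromatin immunoprecipitation in the series. Of the 41 members 16 were below 1 FPKM in both samples. The other 25 reached 1 FPKM in at least 1 sample, as did 14303 of all 23228 genes. At a difference of 2 times, by the wide rule defined below, 11 members were called toward neural tube and 2 toward pancreas. Of these calls, 7 and 1 were of members at 1 FPKM in a single sample, which by itself sets their direction. The remaining 4 and 1 were of members at 1 FPKM in both.

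The stretch of coding sequence for the recognition helix, a part of the forkhead box, is shown for some of the members on which the results turn. Members were chosen by symbol and not by this stretch. Each line gives 12 codons, 5′ to 3′, from the GENCODE M1 transcripts on NCBIM37, the same build as mm9. Capitals mark the codons of an asparagine, an arginine and a histidine, residues of this helix that face DNA.
Foxb1, chr9:69607850-69607885, minus strand: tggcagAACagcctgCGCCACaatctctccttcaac
Foxd1, chr13:99125094-99125129, plus strand: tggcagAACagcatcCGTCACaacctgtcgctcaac
Foxn3, chr12:100626607-100626642, minus strand: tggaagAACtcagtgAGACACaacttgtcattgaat
Foxp4, chr17:48008271-48011589 with an intron inside, minus strand: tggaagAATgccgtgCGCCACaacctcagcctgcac
Foxs1, chr2:152758649-152758684, minus strand: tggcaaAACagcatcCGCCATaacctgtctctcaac

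The searched pattern was found in 39 of the 41 members, and was missing from Foxh1 and from Foxl1, which this annotation types as a pseudogene. In 25 members the stretch lay in 1 exon and in 14 an intron interrupted it. The interrupted members were all those of FoxJ, FoxK, FoxM, FoxO and FoxP. Levels differed along this split: 13 of the 14 interrupted members reached 1 FPKM in at least 1 sample and 11 in both, with medians of 8.09 FPKM in neural tube cells and 4.98 in pancreas. Of the 25 uninterrupted members, 12 reached 1 FPKM in at least 1 sample and 2 in both, Foxn2 and Foxn3, and their medians were 0.626 and 0.0227 FPKM. These are medians of levels and were not tested, since members of a subclass share descent.

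A gene was called higher in a sample by 1 of 2 rules of size, on the log2(FPKM + 1) scale, which understates the difference of low genes. The strict rule asked for at least 4 times and 5 FPKM in the higher sample, and the wide rule for at least 2 times and 1 FPKM. Of the 41 members, 25 reached 1 FPKM in either sample, 24 in neural tube, 14 in pancreas and 13 in both. By the wide rule 11 members were higher in neural tube cells and 2 in pancreas, where the same rule called 21.1% of all 14303 eligible genes higher in neural tube and 25.6% higher in pancreas. The members' shares of those eligible were 44.0% and 8.00%. Scaled to equal totals, the samples gave 14 and 0 members, and shares of all genes of 34.1% and 15.9%. By the strict rule 2 members were higher in neural tube, Foxp4 and Foxb1, and 0 in pancreas, among 13 members at 5 FPKM or more. That is 15.4% and 0% of them, against 10.3% and 11.9% of all genes, and so few members reached that level that no direction was read from the strict counts.

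The 12 members that reached 1 FPKM in a single sample were kept through the sample in which they were high, which by itself sets their direction. Among the 13 at 1 FPKM or more in both, 4 were higher in neural tube by the wide rule (Foxk2, Foxn3, Foxp2 and Foxp4) and 1 in pancreas (Foxo1). The shares of all genes at that level were 18.7% and 18.6%. Another 7 were similar, meaning within 2 times of each other in FPKM, which is 53.8% of these members against 57.6% of all genes. The median difference of the 13 was 0.52 in log2(FPKM + 1), neural tube minus pancreas, and that of all genes at 1 FPKM in both was 0.02. With equal totals the median of all such genes moved to 0.52, so the size of a difference depends on the scaling. The members moved the same way: Foxo3, at 0.52 as deposited, was at 0.99 with equal totals. Medians of members and of all genes are therefore compared within 1 scaling only, and the gap between them was not tested. Over the 25 members that reached 1 FPKM in a sample the median was 0.98, and it was -0.07 for all genes.

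**Figure D1:**
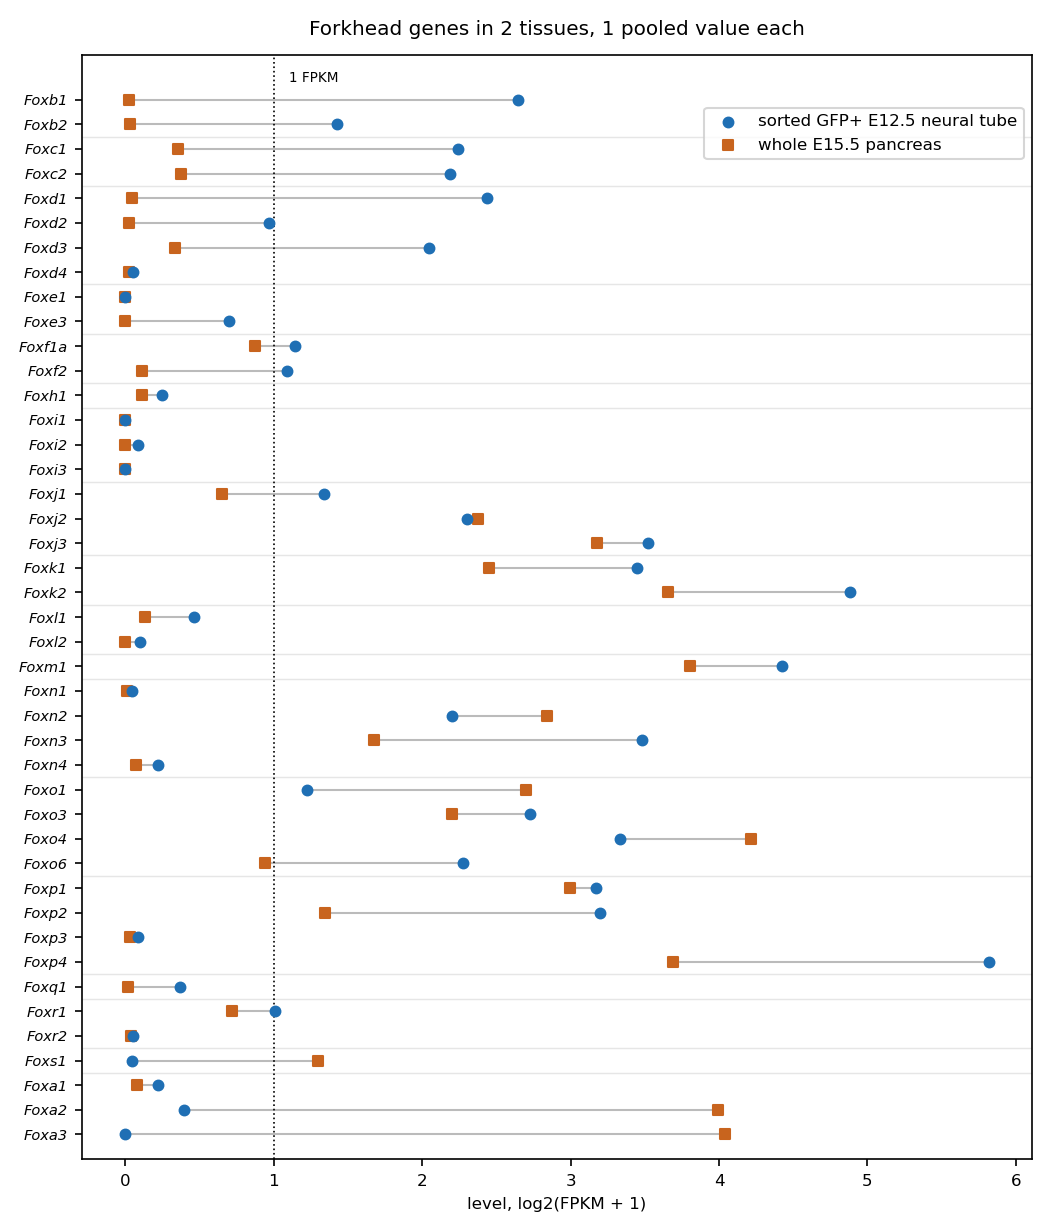
Level of each forkhead gene as log2(FPKM + 1), with circles for sorted neural tube cells and squares for whole pancreas, 1 pooled value each, and the Foxa genes at the bottom; 1 member is not drawn. The dotted line marks 1 FPKM: 24 of 41 members lie to its right in neural tube and 14 in pancreas, and Foxs1 is the member past it in pancreas alone.

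**Figure D2:**
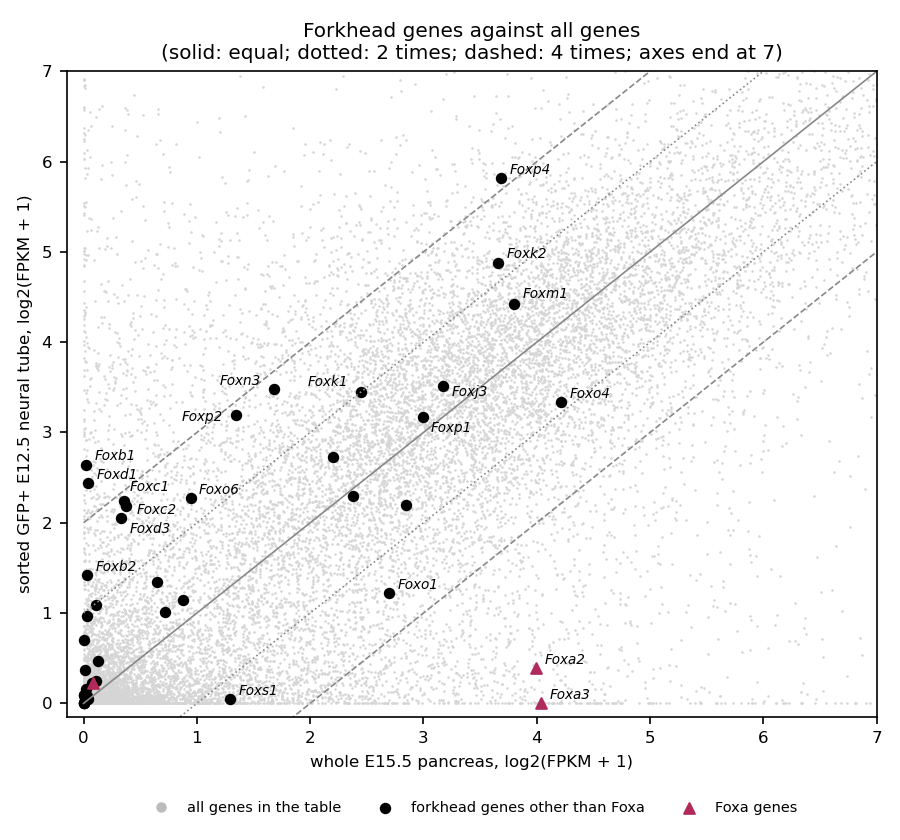
Neural tube against pancreas level, log2(FPKM + 1), for all genes in the table (grey), forkhead members (black) and Foxa genes (triangles). Foxp4, Foxb1 and Foxd1 lie above the upper dashed line of 4 times, the last with under 5 FPKM, Foxo1 and Foxs1 below the lower dotted line of 2 times, and Foxa2 and Foxa3 lie at the lower right.

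The FoxP genes carried the largest share of the neural tube signal. These are large, mostly repressive factors that act as dimers. Foxp4 (chromosome 17, 48004082 to 48061594, minus strand) was at 55.4 FPKM in neural tube cells and 11.9 in pancreas, the highest value of any member in the first sample. Its difference was 2.13, and it remained between 1.84 and 2.70 under the other pseudocounts and scalings tried. Foxp2, known for its part in vocal communication and for marking subsets of neurons, was at 8.18 FPKM against 1.54. Its difference was 1.86, with a range of 1.01 to 2.34 over those alternatives. Foxp1, which has a role in spinal motor neuron identity, was similar at 8.00 and 6.96 FPKM, so the family did not move as one. Foxp3, the factor of regulatory T cells, was at 0.0612 and 0.0220 FPKM, about 5.55 and 3.45 fragments. Of the T cell genes, Cd3e was at 0.0920 FPKM against 2.41 in pancreas, which passed the wide rule. Cd4 was at 0.0671 against 0.431, and Il2ra at 0.0933 against 0.130, a difference of -0.05, and neither passed. Of the 11 haematopoietic markers found, 7 passed the wide rule toward pancreas and 0 the other way, and none was listed at 0. Among all eligible genes 25.6% and 21.1% were called in these directions. Hba-a1, a globin gene of red cells, made up 587 of the 591 FPKM of these markers in neural tube and 14315 of 14514 in pancreas. The part of T cells in the level of Foxp3 was not tested. Together the 4 FoxP genes summed to 71.6 FPKM in neural tube cells and 20.4 in pancreas, or 34.4% and 19.9% of the summed FPKM of all members. Foxp4 supplied 77.3% of the neural tube sum.

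Corepressors that FoxP proteins can recruit were read in the same samples. Of 15 listed genes, subunits of the NuRD complex and CtBP proteins, 7 were higher in neural tube by the wide rule, 2 were higher in pancreas and 6 were similar. The wide rule called 21.1% and 25.6% of all genes in these directions as deposited, the setting of the list counts. With equal totals, in which the list was not counted, the shares of all genes were 34.1% and 15.9%. The list's median difference was 0.75, against -0.07 for all genes, and with equal totals it was 1.35 against 0.51. Chd3, a NuRD helicase, was at 81.9 FPKM against 12.5 in pancreas, and Mta1, another subunit, at 76.8 against 17.5. In the opposite direction stood the histone-binding subunit Rbbp7, at 38.4 in neural tube against 166, and Mbd2 at 10.9 against 38.5.

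The FoxK genes came second in neural tube. Foxk2 (chromosome 11, 121116808 to 121171210) stood at 28.5 FPKM in neural tube cells and 11.6 in pancreas, a difference of 1.22 that passed the wide rule. Foxk1 was at 9.90 and 4.47, a difference of 0.99 that narrowly missed it. The call of Foxk2 was lost with upper quartile scaling, at 0.97, and Foxk1 passed with 3 scalings and with a pseudocount of 0.1, so the genes lie on either side of the line rather than apart. FoxK proteins bind the Sin3 repressor complex and Dishevelled. The list of partners read here was broader and also held other genes, such as Hcfc1. Of its 14 genes 7 were higher in neural tube by the wide rule, 0 in pancreas and 7 similar. The shares of all genes as deposited are those given above. The list's median difference was 0.98 as deposited and 1.54 with equal totals, where that of all genes was -0.07 and 0.51. The list was led by Dvl3 at 65.5 FPKM against 7.57 and Hcfc1 at 52.5 against 15.3.

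FoxO was the subclass with several members whose sum was higher in pancreas, 27.6 FPKM against 19.9 in neural tube, and its genes went in both directions. The difference of the sums, -0.45, turned to 0.15 with equal totals. FoxO proteins leave the nucleus when Akt, activated by insulin and growth factors, phosphorylates them, so their RNA does not report their activity. Foxo1 (chromosome 3, 52072259 to 52154031), which acts in insulin-producing cells and in vessels, was at 1.34 FPKM in neural tube cells and 5.48 in pancreas. Its difference of -1.47 passed the wide rule, but not with equal totals or a pseudocount of 5, with a range of -1.96 to -0.73. Foxo4 was the highest member in pancreas at 17.6 FPKM and was at 9.09 in neural tube, which counts as similar by the narrowest margin of any member. With upper quartile scaling it passed the wide rule toward pancreas, at -1.14. Foxo6, first known from brain, went the other way at 3.84 against 0.924, a difference of 1.33 that fell to 0.58 with a pseudocount of 5. Foxo3 was similar at 5.62 and 3.61. The order within the subclass therefore differed between samples: Foxo4, Foxo3, Foxo6 and Foxo1 in neural tube, and Foxo4, Foxo1, Foxo3 and Foxo6 in pancreas.

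Genes upstream and downstream of FoxO showed no single direction. Of 22 upstream genes, 21 of them eligible, 6 passed the wide rule toward neural tube, 3 did toward pancreas and 11 were similar. The rule called 21.1% and 25.6% of all eligible genes in these directions as deposited, the setting of these counts. Shares of all genes with equal totals were 34.1% and 15.9%, but the list was not counted there. The list's median difference was 0.48, against -0.07 for all genes, and with equal totals it was 1.02 against 0.51. Ywhag, a 14-3-3 protein that holds FoxO in the cytoplasm, was at 175 FPKM against 42.6. The kinase gene Sgk1 was at 4.57 against 15.6 in pancreas. Of 22 described FoxO targets, 18 of them eligible, 3 and 4 passed toward neural tube and pancreas and 9 were similar. Their median was 0.07, or 0.58 with equal totals. Txnip, an inhibitor of thioredoxin, was at 12.1 in neural tube against 123 FPKM, and the cell cycle inhibitor Cdkn1a at 3.44 against 26.4, while Ccng2 was at 34.8 against 10.7.

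Foxm1, which drives genes of G2 and mitosis, was similar at 20.5 FPKM in neural tube cells and 13.0 in pancreas. Of 24 listed G2 and mitosis genes 18 were similar, 1 was higher in neural tube by the wide rule and 4 in pancreas. Among all eligible genes 21.1% and 25.6% were called in these directions, and 57.6% of those at 1 FPKM in both were similar. The list's median difference was -0.51, and it turned to 0.08 with equal totals, where that of all genes was -0.07 and 0.51. Cdc25b, a phosphatase that starts mitosis, was the 1 higher in neural tube, at 43.2 against 18.7. Cdk1, the kinase of mitotic entry, stood at 14.2 against 66.5 in pancreas and its partner Cks2 at 60.6 against 173. With equal totals Foxm1 passed the wide rule toward neural tube, at 1.19.

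The FoxN genes split between samples. Foxn3, a repressor linked to the DNA damage checkpoint, was at 10.2 FPKM in neural tube cells and 2.20 in pancreas, a difference of 1.80 that ranged from 1.07 to 2.20 and kept its call under every pseudocount and scaling tried. Foxn2, its closest relative, was similar at 3.60 and 6.17, so the pair stood in opposite order. Foxn4, which in spinal cord acts in progenitors of V2 interneurons and in retina lies upstream of Ptf1a, was low in both, at 0.165 and 0.0496 FPKM, or about 11.7 and 6.12 fragments. Of 14 genes of the same progenitors, 11 of them eligible, 5 were higher in neural tube by the wide rule, 2 in pancreas and 3 similar. The rule called 21.1% and 25.6% of all eligible genes in these directions. The list's median difference was 0.83, against -0.07 for all genes. Neurog2, a proneural factor, was at 29.3 FPKM and listed at 0 in pancreas, while Dll4 was at 0.699 against 5.33. Foxn1, the factor of thymic epithelium mutated in nude mice, was below 3 fragments in both samples.

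The FoxJ genes were largely shared. Foxj3 was similar at 10.5 FPKM in neural tube cells and 8.03 in pancreas, and Foxj2 at 3.93 and 4.19, the smallest difference of the 25 members. The difference of Foxj2, -0.07, turned positive with 3 of the scalings. Foxj1, the activator of motile cilia genes, was at 1.53 against 0.570 and passed neither rule. Of the 20 cilia genes found, 11 were below 1 FPKM in neural tube cells and 14 in pancreas. Among the 9 eligible, 3 were higher in neural tube by the wide rule and 1 in pancreas, against 21.1% and 25.6% of all eligible genes. The 1 higher in pancreas was Tekt2, a structural protein of motile cilia, at 5.03 against 1.02 in neural tube. Tuba1a, which is also an abundant neuronal tubulin, was the highest of the list at 2977 FPKM in neural tube against 336.

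The remaining members above 1 FPKM belong to subclasses that pattern embryonic tissues, and those called by the wide rule were higher in neural tube, except Foxs1. Foxb1 (chromosome 9, 69605517 to 69608747), a factor of neural progenitors and of the mammillary region, was at 5.25 FPKM in neural tube cells and 0.0155 in pancreas. The second value is about 1.89 fragments, below the floor, and the difference of 2.62 ranged from 1.03 to 5.53 with the pseudocount. Its relative Foxb2 was at 1.68 against 0.0227 FPKM. Both FoxB genes were thus above 1 FPKM in neural tube cells and under the floor in pancreas. Foxd1, which marks kidney stroma and parts of the forebrain, was at 4.42 FPKM against 0.0296, with about 2.98 fragments in pancreas. Its difference of 2.40 passed 4 times, but its level stayed under the 5 FPKM of the strict rule.

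FoxC and Foxd3 formed a second group, low but above the floor in pancreas. Foxc1 was at 3.73 FPKM in neural tube cells and 0.277 in pancreas, and Foxc2 at 3.57 and 0.296. Both act in paraxial mesoderm, in vessels and in the tissues around the brain. Foxd3, an early neural crest factor that is also used by some dorsal interneurons, was at 3.14 and 0.260 FPKM. Each passed the wide rule, with differences of 1.89, 1.82 and 1.71, and each lost it with a pseudocount of 5.

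Markers of the tissues in which these genes are best known were read in the same samples. The wide rule called 21.1% of all eligible genes higher in neural tube and 25.6% higher in pancreas. Of 15 mesenchyme markers 11 were higher in pancreas by the wide rule and 1, Twist1 at 15.8 FPKM against 1.39, in neural tube. Their sum was 539 FPKM in neural tube, of which Vim, also high in neural progenitors, made up 477, and 1559 in pancreas. The endothelial list gave 10 of 12 toward pancreas and 0 toward neural tube, summing to 21.0 FPKM in the neural tube cells against 118 in pancreas. The FoxC genes, Foxd1, Foxd3 and Twist1 were lower in pancreas, while most of the listed mesenchyme and endothelial markers were higher there. None of these markers was listed at 0 in neural tube, where Col3a1 stood at 11.2 and Pecam1 at 1.39 FPKM. Of 10 neural crest markers 3 were higher in each sample. The list summed to 262 FPKM in neural tube, of which Fabp7 made up 183 and Tfap2a 56.7. In pancreas it summed to 50.4 FPKM, with Fabp7 at 14.3 and Tfap2a at 0.190, so its sum follows these genes. Sox10, which defines the crest lineage, was at 3.31 against 2.05 in pancreas. The part of mesenchyme, endothelial or neural crest cells in the levels of the FoxC genes, Foxd1 and Foxd3 was not tested.

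FoxF genes, which hedgehog signals induce in gut mesenchyme, were low in both samples. Foxf1a was at 1.21 FPKM in neural tube cells and 0.836 in pancreas, and Foxf2 at 1.13 and 0.0820. The difference of Foxf2, 0.98, missed the wide rule and passed it with equal totals, with 2 other scalings and with a pseudocount of 0.1. Foxs1, reported in pericytes and sensory neurons, was the 1 member at 1 FPKM or more in pancreas alone, at 1.45 against 0.0341 in neural tube, about 78.1 and 1.06 fragments. Its difference of -1.25 passed the wide rule but not with equal totals or a pseudocount of 5. Of 10 smooth muscle and pericyte markers, 7 passed the wide rule toward pancreas and 0 the other way, against 25.6% and 21.1% of all eligible genes. These markers summed to 102 FPKM in pancreas and 17.1 in neural tube, with none listed at 0. Rgs5, a pericyte gene, was at 10.6 in pancreas against 0.321, and the part of pericytes in the level of Foxs1 was not tested.

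**Figure D3:**
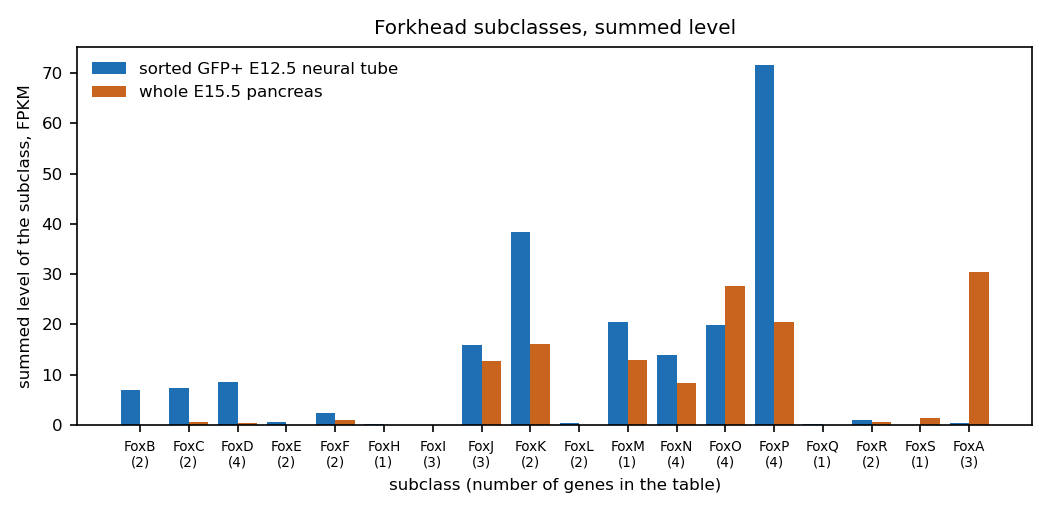
Summed FPKM of the forkhead subclasses in neural tube and pancreas, 1 of them not drawn, with the number of genes under each name and the Foxa genes at the right. FoxP (71.6 against 20.4) and FoxK (38.4 against 16.1) are the tallest in neural tube, FoxO (19.9 against 27.6) is taller in pancreas as deposited though not with equal totals, and FoxA stands at 0.481 and 30.5.

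The 16 members below 1 FPKM in both samples included every gene of FoxE, FoxH, FoxI, FoxL and FoxQ. Their values ranged up to 0.956 FPKM in neural tube, that of Foxd2, and up to 0.0944 in pancreas. Foxe1, Foxi1 and Foxi3 were listed at 0 in both, and Foxe3, Foxi2 and Foxl2 were listed at 0 in pancreas. Foxh1, which joins Smad proteins to nodal targets, was at 0.190 and 0.0791. The nodal ligand itself was listed at 0 in neural tube and at 0.0115 FPKM in pancreas, while the receptor gene Acvr2b was at 43.1 against 1.91 FPKM. Of 17 genes of nodal signalling, 10 of them eligible, 4 passed the wide rule toward neural tube and 2 toward pancreas, and 3 were similar. The rule called 21.1% and 25.6% of all eligible genes in these directions. Foxr1, above 1 FPKM in neural tube, was at 1.01 and 0.649 and passed neither rule, and Foxr2 was at 0.0378 and 0.0257. In all, 7 members were below 3 fragments in neural tube and 14 in pancreas, the deeper sample.

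Several of the patterning members lie beside one another in the genome, and the neighbours differed in level. On chromosome 13, Foxq1 (31650039 to 31652839), Foxf2 (31717685 to 31723272) and Foxc1 (31898515 to 31902504) lie within 252 kb on the plus strand, at 0.294, 1.13 and 3.73 FPKM in neural tube cells and 0.0105, 0.0820 and 0.277 in pancreas. On chromosome 8, Foxf1a (123608286 to 123610851), Foxc2 (123640071 to 123642792) and Foxl1 (123651840 to 123652929) lie within 44.6 kb on the same strand. They stood at 1.21, 3.57 and 0.380 FPKM in neural tube cells and at 0.836, 0.296 and 0.0944 in pancreas. In neural tube the FoxC gene was the highest of its cluster both times, followed by the FoxF gene. In pancreas this order held on chromosome 13, whereas on chromosome 8 Foxf1a was above Foxc2. On chromosome 4, Foxd2 and Foxe3, 19.8 kb from end to end, were at 0.956 and 0.626 FPKM in neural tube, and at 0.0192 and 0 in pancreas. An annotated model, Gm20388, overlaps all 3 genes of the chromosome 8 cluster on their strand, so fragments may be divided among them differently under another annotation. In all 19 members overlap another annotated gene, among them Foxb1, Foxn3, Foxo1 and Foxp4 with a model on the opposite strand. Whether the counting used strand is not stated in the labels.

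**Figure D4:**
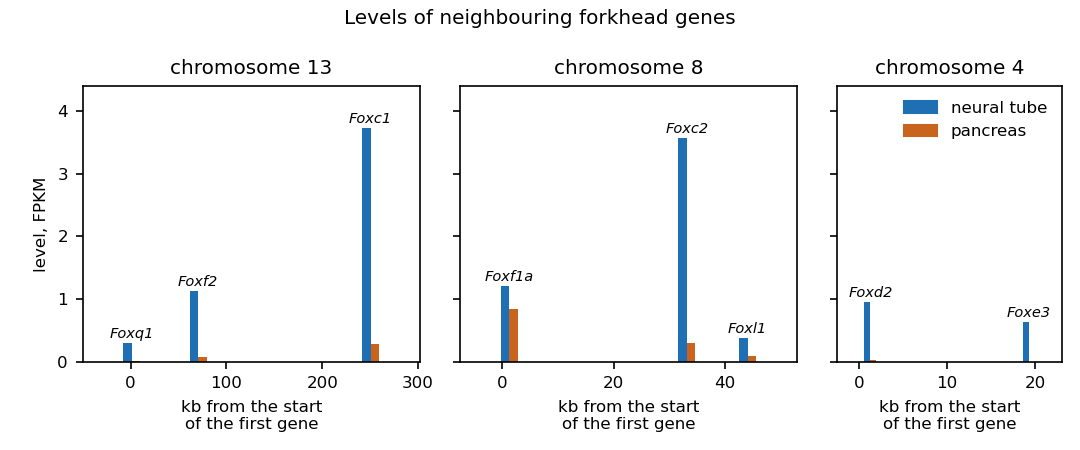
Levels of neighbouring forkhead genes in FPKM, neural tube and pancreas, placed by distance in kb from the start of the first gene of each cluster; bar widths do not show gene length. Foxc1 at 3.73 and Foxc2 at 3.57 FPKM are the highest bars, and Foxf1a, at 1.21 and 0.836, is the gene with the smallest ratio between samples.

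Of the Foxa genes, Foxa2 and Foxa3 lay further toward pancreas than any of the 41 members. Foxa2 was at 0.315 FPKM in neural tube cells and 14.9 in pancreas, and Foxa3, listed at 0 in neural tube, was at 15.45 in pancreas. Both passed the strict rule toward pancreas, which 0 of the 13 members at 5 FPKM or more did, against 11.9% of all eligible genes. The other members were too low for that rule, and no direction of the members was read from it. Foxa1 was at 0.166 and 0.0563 FPKM, about 12.6 and 7.34 fragments, below 1 FPKM in both. In pancreas, Foxo4 at 17.6 was the 1 member above the Foxa2 and Foxa3 levels.

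**Figure D5:**
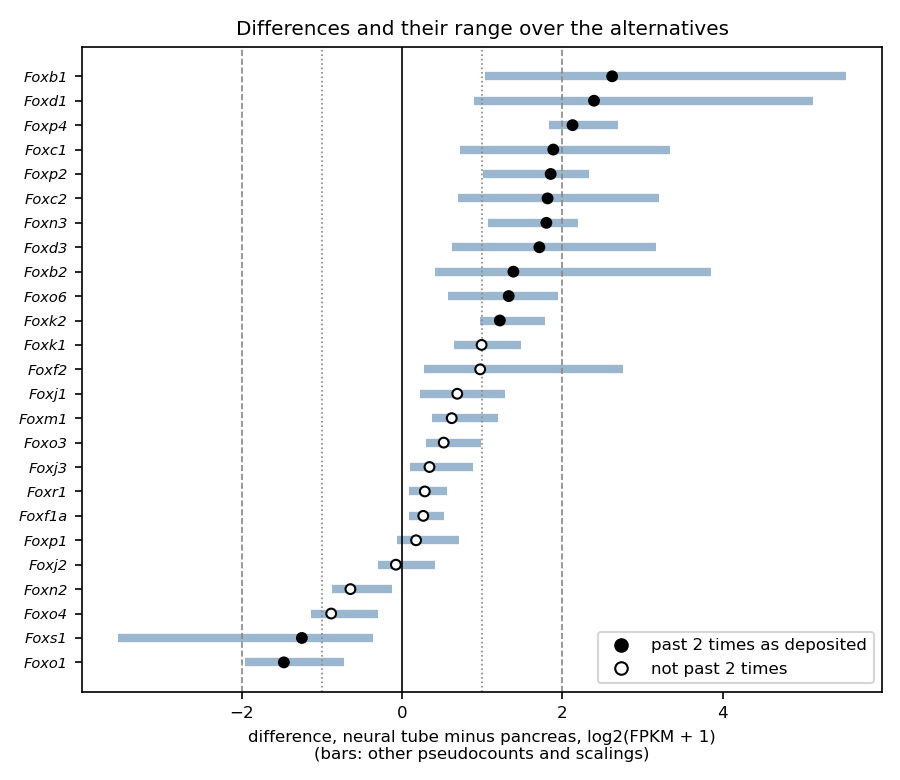
Difference of the 25 members that reached 1 FPKM, neural tube minus pancreas in log2(FPKM + 1); bars span the values under other pseudocounts and scalings, dotted lines mark 2 times and dashed lines 4 times. Bars are longest for genes near 0 in 1 sample, such as Foxb1 (1.03 to 5.53), and short for genes well expressed in both, such as Foxp4 (1.84 to 2.70).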

How the data were processed

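Per the file headers, the authors deposited FPKM, 1 value per gene for each tissue. The submitters' processing notes name mm9 and, in no stated order or role, Cuffdiff 2.0.2, TopHat2 2.0.4, TopHat and CASAVA. The labels do not state the annotation, filters or depth. Per the labels' protocols, a column kit served for RNA of sorted cells and Trizol for pancreas, and a TruSeq preparation is named for pancreas only, so tissue, stage, sorting, extraction and possibly preparation cannot be told apart. The other 16 samples of the series, of chromatin, are not analysed here.

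Differences were log2(FPKM + 1) in neural tube minus pancreas, and calls were rules of size, computed in Python 3.11.15 with pandas 2.3.3. Fragments were approximated from the commonest smallest product of FPKM and length among genes with 1 transcript in GENCODE M1. Alternatives were pseudocounts of 0.1 and 5, no filter or 10 FPKM, 5 scalings, 8 times, and similarity within 1.5 times. The members, gene lists and rules were chosen with earlier results of these data known. All members are named or counted. Of the members, 1 is counted but not reported by name here. Of each other list, the 2 largest differences in each direction among genes at 5 FPKM or more could be named, and of marker lists also the highest gene of each sample. Sox10, Cd3e, Cd4, Il2ra and the nodal ligand were named outside this rule, after their values were seen.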

Additional observations from a re-analysis of the deposited data

How the results depend on the processing

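No paired analysis was possible because each tissue has 1 pooled value, and for the same reason no library could be left out. By the strict rule, 2 members were higher in neural tube as deposited. This count was 4 with equal totals, with equal totals without the 50 highest genes of each sample, with housekeeping centring and with a pseudocount of 0.1. It was 1 with a filter of 10 FPKM or with upper quartile scaling, and 0 at 8 times or with a pseudocount of 5. The strict count toward pancreas was 0 under every alternative run. By the wide rule, 11 members were higher in neural tube, and this was 3 with a filter of 10 FPKM, which leaves 6 members, and 5 with a pseudocount of 5. The 2 toward pancreas became 0 with equal totals, with a filter of 10 FPKM and with a pseudocount of 5. The 7 similar members became 4 with equal totals, 1 with a filter of 10 FPKM, 11 without a filter and 3 within 1.5 times. The median difference of 0.98 was 0.33 without a filter, which adds the members near 0, and lay between 0.41 and 1.30 otherwise. Of 25 members 14 changed their side of the wide rule under at least 1 of 7 pseudocounts and scalings, while Foxb1, Foxn3, Foxp2 and Foxp4 were the 4 of 13 called members that did not. No called member changed sign, and Foxj2 and Foxp1, neither of them called, did. Depth limits the members under 3 fragments, whose size of difference is set by the pseudocount. The cause of these shifts was not tested.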
